A study of Rattus norvegicus with 13 samples.

Results

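The genes described here belong to the route by which major histocompatibility complex (MHC) class I molecules are built and loaded with peptide in the rat. They are the light chain gene B2m, 5 class I heavy chain genes of the rat MHC (RT1-A1, RT1-A2, RT1-CE5, RT1-S3 and RT1-N3), the peptide transporter gene Tap1, the immunoproteasome genes Psmb8 and Psmb9, and the transactivator gene Nlrc5. The members were chosen by symbol from the authors' deposited table of 14855 genes. All 10 symbols were found, each with 1 row, so all passed whatever filter on low counts the authors used. The list of symbols was drawn up with the deposited fold changes and p-values of this same comparison already known, so every fold change and p-value below is a description of the set and no test of it.

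RNA sequencing was done on the medial preoptic area, part of the anterior hypothalamus with roles in mating, parenting and social reward, from adolescent male SAS Sprague-Dawley rats. On postnatal day 21 each side was injected with 0.5 uL of adeno-associated virus (AAV5) carrying GFP and, under the U6 promoter, a short hairpin RNA (shRNA). The hairpin was directed against Oprm1, the mu opioid receptor gene, in 6 labelled samples and was scrambled in 7. Of the former, 1 is marked in its label as an outlier that was not analysed, so 5 Oprm1 shRNA samples stand against 7 scrambled ones if the fit, which names no libraries, followed the labels. Both groups thus carried virus, GFP and a hairpin, no group without virus is among the samples, and the labels restrict the virus to no cell type. The labels do not say that each sample is a separate rat, and the p-values then measure the spread between these samples, which may be technical. The question behind the comparison is how a hairpin against the receptor shifts gene expression in the preoptic tissue.

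Class I molecules carry peptides from proteins of the cell's own cytosol to its surface, where CD8 T cells and natural killer cells read them. The proteasome cuts the peptides, the Tap transporter moves them into the endoplasmic reticulum, and a heavy chain folds around a peptide together with beta-2 microglobulin. Interferons raise many of these genes together, in part through Nlrc5, which acts on a shared promoter module. In the brain, class I is expressed by endothelium and microglia and also by neurons, and in mice it has been linked to the pruning of synapses.

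The members are spread over 3 chromosomes in the RefSeq annotation of build GRCr8. B2m is on chromosome 3, Nlrc5 on chromosome 19, and the other 8 members are on chromosome 20, which holds the rat MHC. Psmb8, Tap1 and Psmb9 are neighbours there with 0 annotated genes between them. The RefSeq promoter table held a window of 300 bases, from 250 before to 50 after the annotated start, for 9 of the 10 members and none for Nlrc5. Both strands of each window were searched for 4 short motifs: the CRE core TGACG, which is part of the X2 box of MHC promoters, the CCAAT box in the orientation ATTGG, an interferon-stimulated element (GAAA, 2 bases of any kind, GAAA), and a kappa B motif (GGGA, 4 bases of any kind, CC). The windows below are printed from 5′ to 3′ on the strand of the gene, with every motif match in capitals and overlapping matches merged into 1 run.

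The B2m window, chr3:129549080-129549379 of GRCr8 on the plus strand, is shown because B2m is the member with the smallest p-value, and it holds all 4 kinds of motif.
B2m: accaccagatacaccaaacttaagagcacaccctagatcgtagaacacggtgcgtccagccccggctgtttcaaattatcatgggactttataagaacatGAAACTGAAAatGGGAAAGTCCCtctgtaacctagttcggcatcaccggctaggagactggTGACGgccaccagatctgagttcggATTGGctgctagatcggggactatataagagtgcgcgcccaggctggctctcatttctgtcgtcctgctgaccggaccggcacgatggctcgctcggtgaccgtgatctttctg
Reading towards the start, the interferon element lies at −150 to −141, kappa B matches on both strands follow from −138 to −128, the CRE core is at −89 to −85 and the CCAAT box at −64 to −60.

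The windows of the classical class I genes RT1-A2 (chr20:4872621-4872920, plus strand) and RT1-A1 (chr20:4906959-4907258, plus strand), also of GRCr8, are shown because they are near copies of each other while the deposited fold changes of the genes have opposite signs.
RT1-A2: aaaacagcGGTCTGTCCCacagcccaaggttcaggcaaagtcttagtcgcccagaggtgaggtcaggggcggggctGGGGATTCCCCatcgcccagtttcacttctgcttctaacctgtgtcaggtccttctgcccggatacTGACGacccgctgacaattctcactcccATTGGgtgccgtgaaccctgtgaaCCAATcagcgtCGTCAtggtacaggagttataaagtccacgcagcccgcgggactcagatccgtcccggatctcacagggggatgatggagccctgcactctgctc
RT1-A1: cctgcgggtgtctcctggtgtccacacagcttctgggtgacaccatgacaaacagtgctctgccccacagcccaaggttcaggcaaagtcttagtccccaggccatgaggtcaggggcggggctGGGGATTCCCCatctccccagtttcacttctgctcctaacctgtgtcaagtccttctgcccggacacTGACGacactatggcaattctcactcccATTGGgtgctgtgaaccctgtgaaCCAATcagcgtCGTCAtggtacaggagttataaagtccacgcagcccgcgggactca
Aligned with free ends, they were identical at 235 of 254 positions, or 92.5%. RT1-CE5 was 83.7% identical to RT1-A2 and 86.1% to RT1-A1 in the same way. The windows of RT1-S3 and RT1-N3 were between 51.9% and 58.3% identical to those of the other heavy chain genes and to each other, over 84 to 318 aligned positions.

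The third set is the pair of Tap1 (chr20:4668494-4668793, minus strand) and Psmb9 (chr20:4668750-4669049, plus strand) of GRCr8, shown because these genes point away from each other with 456 bases between their annotated starts.
Tap1: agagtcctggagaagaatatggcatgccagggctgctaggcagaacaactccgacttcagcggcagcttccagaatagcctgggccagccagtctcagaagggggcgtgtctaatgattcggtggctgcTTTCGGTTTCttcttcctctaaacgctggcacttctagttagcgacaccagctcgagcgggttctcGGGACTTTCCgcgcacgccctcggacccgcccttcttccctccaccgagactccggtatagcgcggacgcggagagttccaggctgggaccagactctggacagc
Psmb9: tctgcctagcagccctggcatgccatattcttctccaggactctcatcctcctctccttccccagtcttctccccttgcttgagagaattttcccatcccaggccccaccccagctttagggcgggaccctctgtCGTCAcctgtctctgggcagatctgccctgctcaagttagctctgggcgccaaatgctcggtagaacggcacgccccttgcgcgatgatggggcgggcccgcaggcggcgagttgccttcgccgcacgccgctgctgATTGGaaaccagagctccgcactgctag
The windows share 44 bases, which stand at the beginning of each on opposite strands. Tap1 has an interferon element at −121 to −112 and a kappa B match at −55 to −46. Psmb9 has a CRE core at −115 to −111 and a CCAAT box past its start, at 23 to 27.

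Across the 9 windows, the interferon element was found in 5 (B2m, RT1-N3, RT1-S3, Tap1 and Psmb8), against 3.92% of all 33469 promoter windows of the table and 2.83% of the 12061 windows whose gene symbol the authors' deposited table also lists. The CCAAT box was in 8 of 9 windows, against 37.5% of all windows and 36.8% of those of listed genes. The CRE core was in 5, against 21.2% of all and 29.5% of those of listed genes, and the kappa B motif in 5, against 19.3% and 25.0%. A CRE core followed on the same strand by a CCAAT box, with 20 to 35 bases from first base to first base, occurred in B2m (25 bases), RT1-A2 (28) and RT1-A1 (28), and in 0.281% of all windows and 0.489% of those of listed genes. That arrangement was chosen after the matches were seen. The near identity of RT1-A1, RT1-A2 and RT1-CE5 means that their matches are not separate observations. Only exact matches inside the windows were counted, so a window without one may still hold a variant of the interferon element. In the authors' deposited table, members whose window matched the interferon pattern had log2 fold changes from −0.36 to 1.60. Those whose window did not match it had values from −3.68 to 1.91, so these ranges overlap. Several of these values rest on few reads and all were known when the members were chosen, so the overlap decides nothing about the motif. A match marks letters in a window and no binding was measured.

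**Figure D1:**
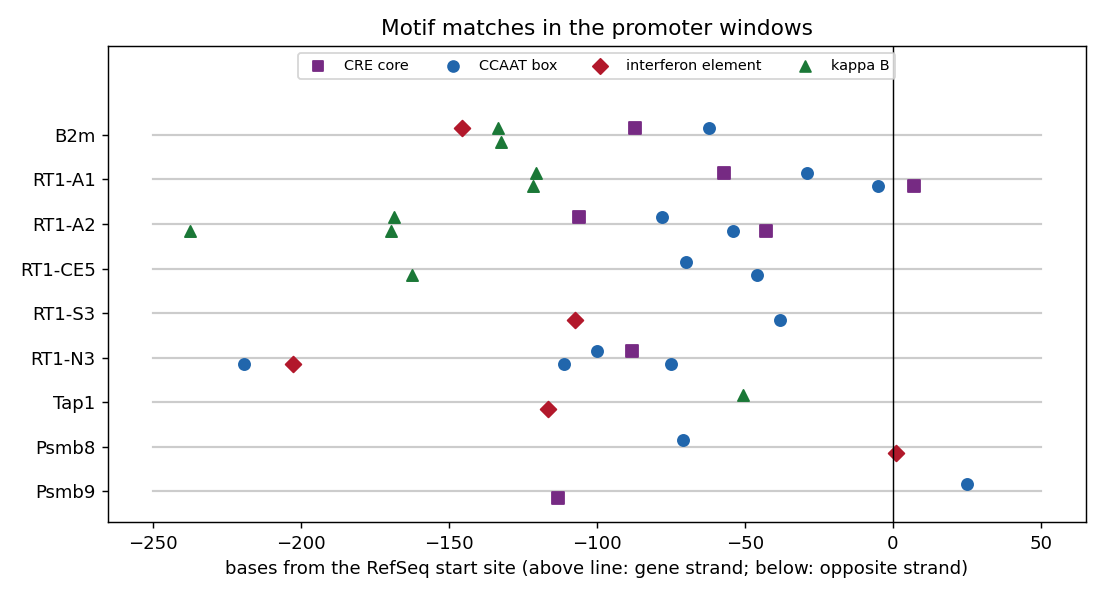
Positions of the 4 kinds of motif, in bases from the RefSeq start site (vertical line at the start), in the 9 promoter windows, with matches on the gene's strand above each line and on the opposite strand below. The interferon element appears in B2m, RT1-S3, RT1-N3, Tap1 and Psmb8, and a CRE core is followed on the gene's strand within 20 to 35 bases by a CCAAT box in B2m, RT1-A1 and RT1-A2.

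The comparison came as 1 row of fitted values a gene, and values of single samples were not analysed here. The row holds a log2 fold change (above 0 means higher with Oprm1 shRNA), an average abundance over the libraries as the log2 of CPM (counts scaled to library size), a likelihood ratio and p-values. The standard error of a fold change was taken from the likelihood ratio, and the 95% intervals below are approximate. Depth per sample is unknown. CPM is not scaled to transcript length, so it tells how many reads stand behind a gene's estimate and does not rank the genes by transcript level. The targeted gene Oprm1 had a log2 fold change of −0.58 per the authors' deposited table, a fold of 0.670 with an interval from 0.0715 to 6.27 (unadjusted p = 0.725), so its level does not check the labels in either direction. Preoptic and anterior hypothalamic markers had a row for 10 of 10 genes, of which 9 were higher and 1 lower with a median of 0.23 on the log2 scale, among them Calcr at 360 CPM and Esr1 at 41.8 CPM per the authors' deposited table, and the smallest p-values among them belonged to Otp at 3.09 and Hmx2 at 1.84 on the log2 scale. Otp and Hmx2 rest on few reads, at 2.76 and 3.47 CPM, with fold intervals from 0.301 to 242 and from 0.356 to 36.2. The part of preoptic neurons in the class I values was not tested.

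Of the 10 class I genes, 8 were higher with Oprm1 shRNA and 2, Tap1 and RT1-A1, were lower per the authors' deposited table. Over all 14855 genes the share with a value above 0 was 48.4%. The median log2 fold change was 0.56 over the 10 members and −0.02 over all genes. No member passed an adjusted p of 0.05 in the authors' edgeR comparison, a count of 0 of 10 beside 3 of 14855 genes, or 0.0202%. At an unadjusted p under 0.05 per the authors' deposited table there was 1 member, B2m, which was higher, beside 221 genes or 1.49% of the table in that direction and 4.39% in either. Nothing is read from these shares, since the members were chosen with this comparison known.

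**Figure D2:**
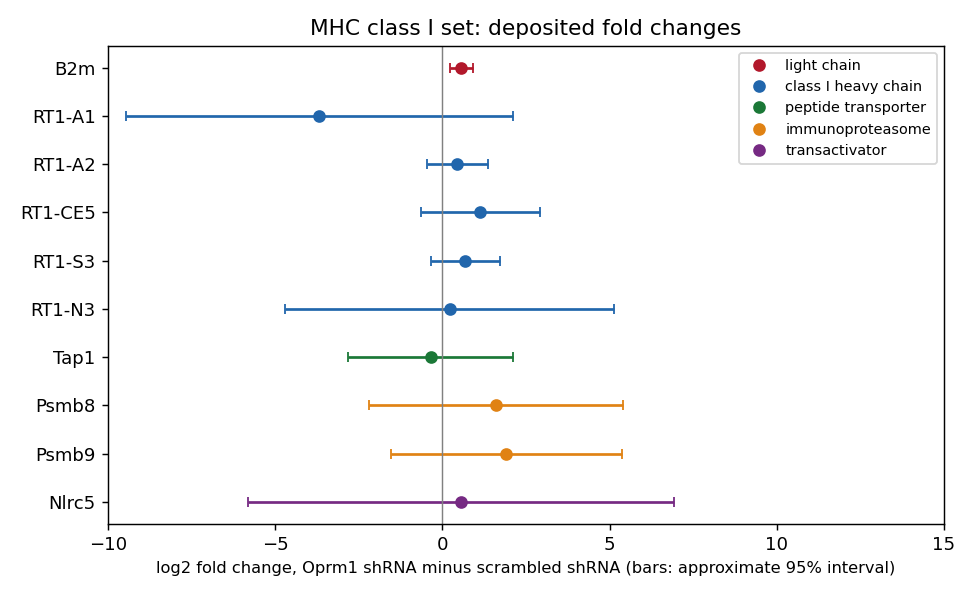
Deposited log2 fold change of each member, Oprm1 shRNA minus scrambled, with bars for the approximate 95% interval and colours for the member's role. The interval of B2m lies above 0, and those of the other 9 members include 0.

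B2m (ENSRNOG00000017123), the light chain that every classical class I molecule needs, was listed at 417 CPM with a log2 fold change of 0.57 ± 0.18 (implied standard error) per the authors' deposited table. This is a fold of 1.48 with an interval from 1.16 to 1.88. Its unadjusted p was 0.00137, the smallest among the members and the 26th smallest of the table, and its adjusted p was 0.784 by the authors' edgeR test. Of the 317 genes within 0.5 log2 CPM of B2m, B2m included, 0 had a higher log2 fold change per the authors' deposited table. The middle 90% of them lay between −0.23 and 0.23. B2m was chosen with its fold change known, so this rank is a description and no test. Its adjusted p missed the threshold for the table as a whole.

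Among the 5 heavy chain members, the 3 with the most reads were higher, with wide intervals. RT1-S3 (ENSRNOG00000000777), a non-classical class Ib gene that RefSeq lists with the mouse gene name H2-T23 as a synonym, had a log2 fold change of 0.69 ± 0.52 (implied standard error) at 41.3 CPM per the authors' deposited table. Its fold of 1.61 had an interval from 0.792 to 3.27 (unadjusted p = 0.188). The classical gene RT1-A2 (ENSRNOG00000030712), whose product presents peptides to CD8 T cells, had 0.44 ± 0.47 on the log2 scale at 33.7 CPM per the authors' deposited table, a fold of 1.36 between 0.719 and 2.58 (unadjusted p = 0.344). RT1-CE5 (ENSRNOG00000000723), a further class I gene, had 1.14 ± 0.91 on the log2 scale at 16.3 CPM there, with a fold of 2.20 between 0.637 and 7.57 per the authors' deposited table. The 3 estimates lie within 1 log2 unit of each other, each interval holds both 1 and the fold of B2m, and none of these genes is shown to differ from it.

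The remaining heavy chains rest on few reads. RT1-A1 (ENSRNOG00000038999), the other classical gene, was listed at 1.72 CPM with a fitted log2 fold change of −3.68 ± 2.96 (implied standard error) per the authors' deposited table, and its fold interval ran from 0.00140 to 4.34. RT1-N3 (ENSRNOG00000000795), a class Ib gene, had 0.22 ± 2.51 on the log2 scale at 2.30 CPM per the authors' deposited table. Against RT1-A2, its near copy in the promoter, the log2 fold change of RT1-A1 was lower by a margin whose interval includes 0: RT1-A2 minus RT1-A1 was 4.12, from −1.75 to 9.99, taking the estimates per the authors' deposited table as independent. Sampling aside, RSEM divides reads among similar transcripts by estimate, and how reads were shared between these genes was not tested.

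The rat class I genes outside the set also had values on both sides of 0. A further 10 rows with RT1 symbols that are not class II genes had 5 values above and 5 below 0, a median of 0.25 on the log2 scale and 0 at an unadjusted p under 0.05 per the authors' deposited table. The smallest p-values among them belonged to RT1-CE10 at −2.51, RT1-N2 at 1.73 and RT1-T24-1 at 2.34 on the log2 scale, none of them above 5.84 CPM per the authors' deposited table. Those with the most reads were RT1-T24-4 at 24.2 CPM and RT1-M3-1 at 15.8 CPM, named after their values were seen, with −0.08 and −0.25 on the log2 scale per the authors' deposited table. RT1-CE7, which the newer RefSeq annotation gives as a synonym of RT1-CE5, had a row of its own with 0.94 beside 1.14 for RT1-CE5 on the log2 scale per the authors' deposited table. With the members, 15 class I heavy chain rows gave 9 higher and 6 lower. Class I-like chains coded outside this family had 2 of 3 measured genes higher, the antigen-presenting gene Mr1 at 1.29 and the iron regulator Hfe at −2.79 on the log2 scale having the smallest p-values per the authors' deposited table. Mr1 had 10.6 CPM and a fold interval from 0.415 to 14.4, and Hfe had 2.33 CPM and one from 0.00255 to 8.14.

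Tap1 and the immunoproteasome genes had estimates on both sides of 0. Tap1 (ENSRNOG00000000457), 1 of the subunits of the peptide transporter, had a log2 fold change of −0.36 ± 1.26 (implied standard error) at 8.22 CPM per the authors' deposited table, a fold of 0.781 between 0.142 and 4.30. Psmb8 (ENSRNOG00000000456), the subunit that takes the place of Psmb5 in the immunoproteasome, had 1.60 ± 1.94 on the log2 scale at 6.74 CPM, a fold of 3.03 between 0.217 and 42.2 per the authors' deposited table. Psmb9 (ENSRNOG00000000459), which takes the place of Psmb6, had 1.91 ± 1.76 at 4.36 CPM, a fold of 3.76 between 0.345 and 41.0 per the authors' deposited table. These are the largest upward estimates of the set. Among genes within 0.5 log2 CPM, the member included, they were exceeded by 7.19% of 1613 genes for Psmb8 and by 6.37% of 1350 for Psmb9 per the authors' deposited table. These ranks too describe members chosen with their values known. For the divergent pair the difference Psmb9 minus Tap1 was 2.27 on the log2 scale, with an interval from −1.97 to 6.50 per the authors' deposited table if the estimates are independent, so the opposite signs are within error.

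The third immunoproteasome subunit, Psmb10, stood at 0.80 on the log2 scale with 18.3 CPM (fold interval 0.361 to 8.41), and the proteasome activator genes Psme2 and Psme1 had 0.94 and 0.11 per the authors' deposited table. Of these 3 partners 0 had an unadjusted p under 0.05. The subunits of the standard proteasome that the immunoproteasome replaces were listed with more reads. Psmb7 had a log2 fold change of 0.40 and a fold interval from 1.002 to 1.74 (unadjusted p = 0.0486, adjusted p = 0.9997 by the authors' edgeR test), Psmb6 had 0.25 and Psmb5 −0.10 per the authors' deposited table. For each replaced pair the interval of the immunoproteasome subunit contains the fold of its standard counterpart.

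Peptide loading in the endoplasmic reticulum had 4 of 6 measured genes higher and 2 lower, a median of 0.04 on the log2 scale and 0 at an unadjusted p under 0.05 per the authors' deposited table. Tapbp, the tapasin that bridges Tap and the heavy chain, had a fold of 1.30 between 0.543 and 3.13. The chaperone gene Canx, at 1070 CPM, had a fold of 0.901 between 0.811 and 1.002 (unadjusted p = 0.0547), and Tapbpl, a tapasin relative, had 1.17 on the log2 scale per the authors' deposited table. Calr and Pdia3, chaperones of the loading complex that serve many other proteins too, had intervals of 0.838 to 1.22 and 0.859 to 1.29 per the authors' deposited table. Tap2, the partner of Tap1, had no row under that symbol among the genes analysed here.

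Nlrc5 (ENSRNOG00000048222), the class I transactivator, had a log2 fold change of 0.54 ± 3.25 (implied standard error) at 1.25 CPM per the authors' deposited table. The fold interval from 0.0176 to 121 leaves its direction unknown. Promoter-binding factors and transactivators had 5 of 11 measured genes higher and 6 lower, with a median of −0.26 and 0 at an unadjusted p under 0.05, led by Rfx5 at −0.41 and Rela at −1.08 on the log2 scale per the authors' deposited table. Upstream, the interferon receptor and signalling genes had 5 higher and 5 lower with a median of −0.01 per the authors' deposited table. The type I receptor gene Ifnar1 had a fold of 1.54 between 1.03 and 2.31 (unadjusted p = 0.0355, adjusted p = 0.9997 by the authors' edgeR test).

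**Figure D3:**
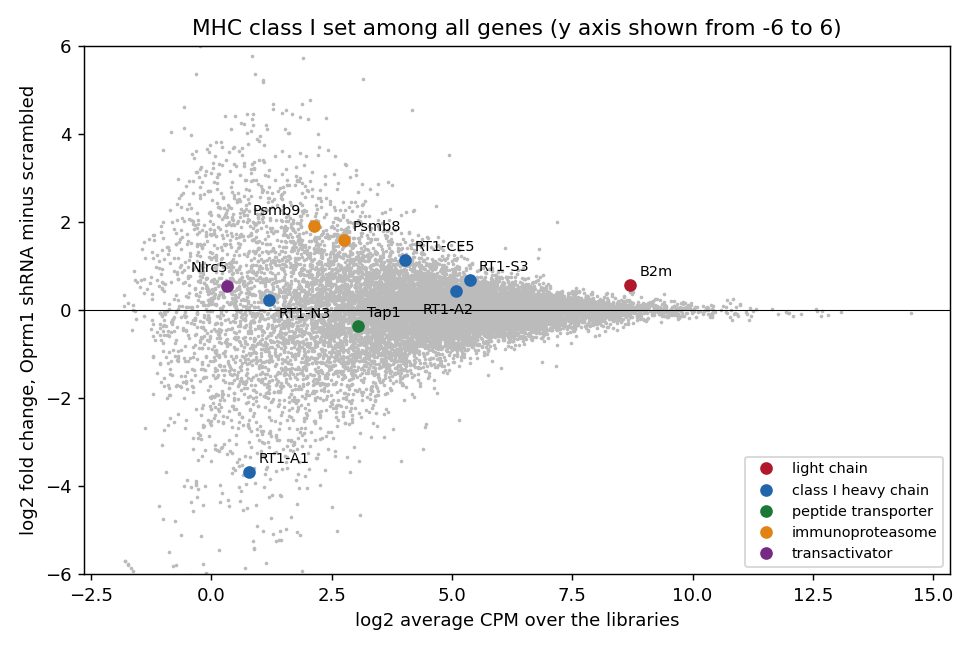
Log2 fold change against log2 average CPM for all genes (grey) and the members (coloured by role), with the vertical axis limited to 6 on either side, which leaves 447 grey genes out of view. B2m, chosen with its value known, has the highest log2 fold change of the genes within 0.5 log2 CPM of it. The members with few reads lie within the broad cloud at the left.

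Precision differed widely within the set. The implied standard error per the authors' deposited table was 0.18 for B2m and between 0.47 and 3.25 on the log2 scale for the other 9 members. A fold would have to exceed 1.27 for B2m to clear its interval, 1.89 for RT1-A2, 2.03 for RT1-S3 and 3.45 for RT1-CE5. That limit was 5.50 for Tap1, 10.9 for Psmb9, 14.0 for Psmb8, 30.3 for RT1-N3, 55.6 for RT1-A1 and 83.1 for Nlrc5. An increase of the size seen in B2m was therefore not detectable in any other member, and the intervals of all 9 contain both 1 and the B2m fold of 1.48.

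**Figure D4:**
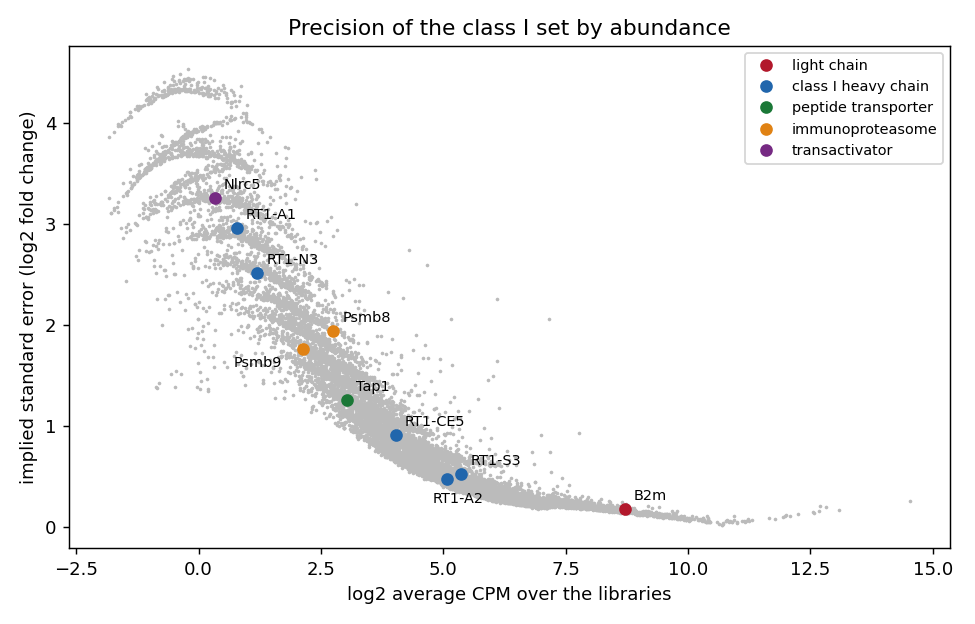
Implied standard error of the log2 fold change against log2 average CPM for all genes (grey) and the members (coloured by role). The error is 3.25 for Nlrc5, the member with the fewest reads, and 0.18 for B2m, with the most.

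In tissue, a gene's level depends on how many cells of a type are present and on how much RNA each holds, and these cannot be told apart here. Microglial markers had 5 of 11 measured genes higher and 6 lower, their median on the log2 scale was 0.00, and the summed average was 380 CPM over both groups per the authors' deposited table. Trem2 at −2.64 and C1qa at 0.31 had the smallest p-values among them. Markers of perivascular and other macrophages were higher in 5 of 5 measured genes with a median of 1.0, none above 8.84 CPM and with 0 at an unadjusted p under 0.05. Siglec1 at 4.42 and Mrc1 at 1.13 on the log2 scale had the smallest p-values among these macrophage markers per the authors' deposited table. Of 9 markers of cytotoxic lymphocytes 0 had a row among the genes analysed here. Endothelial markers had 4 of 7 higher and a median of 0.13, and the smallest p-values belonged to Vwf at −0.50 and Kdr at −0.69 per the authors' deposited table. The part of any of these cells in the class I values was not tested.

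Markers of astrocytes had 2 of 6 genes higher, neurons 3 of 8 and oligodendrocytes 1 of 6, with medians between −0.15 and −0.05 on the log2 scale per the authors' deposited table. Slc1a2, an astrocyte glutamate transporter gene, at −1.47 and Map2, a neuronal microtubule gene, at −0.15 had an unadjusted p under 0.05. Genes of the MHC class II route, which present peptides taken up from outside the cell, had 7 of 8 higher and a median of 2.26, with Cd74 at 2.0, RT1-Bb at 5.25 and RT1-Da at 2.36 under an unadjusted p of 0.05 per the authors' deposited table. RT1-Bb was listed at 8.93 CPM with a fold interval from 2.89 to 504 per the authors' deposited table. Whether class I and class II genes differ in their response was not tested. No gene of these pathway or marker lists passed an adjusted p of 0.05 in the authors' edgeR comparison, with a count of 0.

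**Figure D5:**
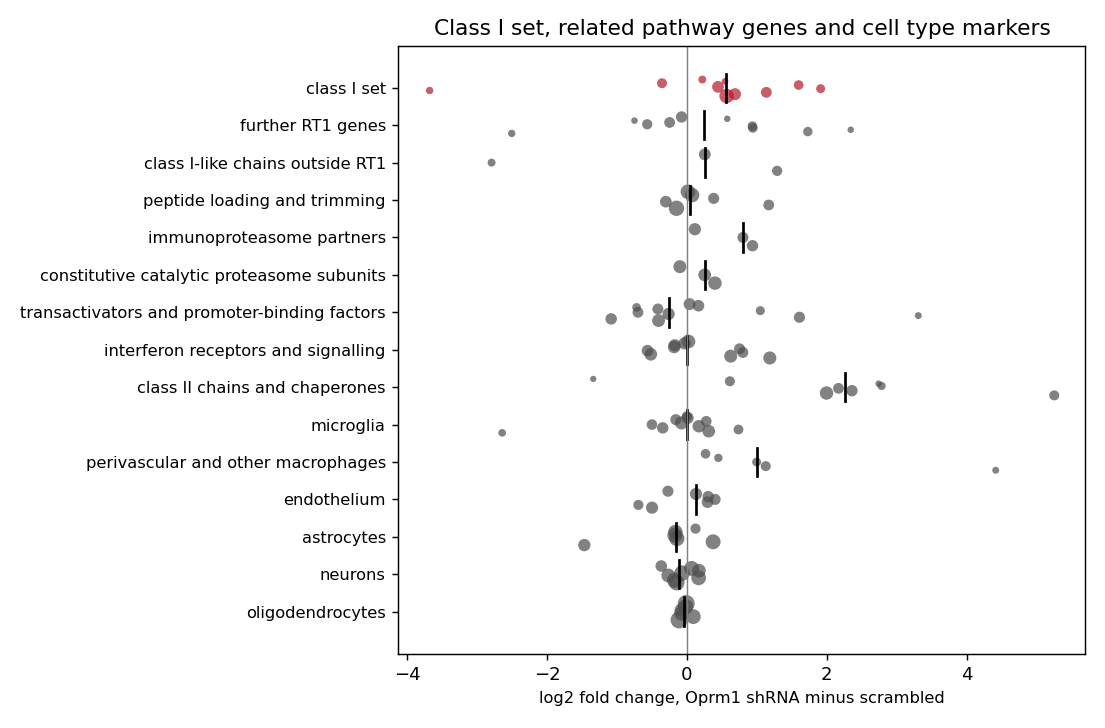
Log2 fold change of each measured gene (dots, larger with more reads) in the class I set (top, red), related pathway lists and cell type marker lists, with a black bar at each list's median. The medians of the lists shown run from −0.26 for transactivators and promoter-binding factors to 2.26 for class II. That of the class I set, chosen with its values known, is 0.56.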

How the data were processed

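The labels name 13 samples of medial preoptic tissue, 7 with scrambled and 6 with Oprm1 shRNA, of which 1 is left out by its label. Per the submitters' processing notes, the tools were STAR 2.5.3a, bcl2fastq 2.20, RSEM and edgeR 3.28.0, on build Rnor_6.0. Not given in the sources used here are the annotation release, any low-count filter, the dispersion setting and covariates. The authors deposited, per the file headers, a log2 fold change, a log2 average CPM, a likelihood ratio (a score with no fixed range), an unadjusted p-value and a Benjamini-Hochberg adjusted p-value for each of 14855 genes. The authors' adjusted p-values imply 14859 tests, and they were used as deposited.

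The implied standard error is the size of the log2 fold change over the root of its likelihood ratio, and the interval is the estimate ± 1.96 of these. This is poor for genes with few reads, whose fitted values depend on the authors' settings. Depth per sample is unknown. The planned count test gave way to the deposited values because the table holds 1 comparison and no samples. The planned protein comparison was not run.

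The members and lists were chosen with earlier results of these data known. Named are all members, Tap2, Tapbp, Psmb10, Psmb5, Psmb6 and Psmb7, and in each list up to 3 genes with the smallest unadjusted p under 0.05 or, with none, the 2 smallest (3 for further RT1 genes). Others (Calcr, Esr1, Calr, Pdia3, Psme1, RT1-CE7, RT1-T24-4, RT1-M3-1) were chosen after their values were seen. Some genes that the rule names are left unreported. Promoter windows are RefSeq's (GRCr8), matched by symbol. The coordinates given, for the printed windows only, are those of GRCr8 and not of the authors' build. Python 3.11.15, numpy, pandas, scipy and matplotlib were used. Scripts were tested on data simulated with normal errors of the implied size, which cannot check the implied standard error for counts.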

Additional observations from a re-analysis of the deposited data

How the results depend on the processing

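The count of members past an adjusted p of 0.05 stayed at 0 at an adjusted p under 0.1 and with the adjustment redone over all genes or over genes with log2 CPM of at least 0 or 4, as did that of the pathway genes. The adjusted p of B2m ranged from 0.745 to 0.901 over these adjustments, beside 0.784 as deposited. The count of 8 higher members was 4 of the 4 members left with log2 CPM of at least 4 and 4 of the 5 left without the RT1 genes, where fewer members remain by construction, and 8 when fold changes were centred on all genes or on genes of like abundance. The median log2 fold change of the set lay between 0.56 and 0.63 in all these settings. Member promoters with an interferon element numbered 4 in place of 5, and with a CCAAT box 7 in place of 8, when only bases before the start were searched. No member had an absolute log2 fold change above 5. No paired analysis was possible because the deposited columns are 1 comparison and carry no samples. For the same reason no replicate was left out and no other count normalization was run. Depth and the spread between samples could not be separated in the errors of the members.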
